A study of Mus musculus with 6 samples.

Results

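RUNX1 binding was examined around the genes of the TLE and ETO corepressors in mouse granulosa cells, which line the ovarian follicle around the oocyte. The genes are Tle1, Tle2, Tle3, Tle4 and Tle6 of the TLE family and Runx1t1, Cbfa2t2 and Cbfa2t3 of the ETO family. A peak was assigned to a gene when its summit lay inside the annotated gene body or within 50 kb of either end. Of the 51515 peaks in the 4 deposited lists, 136 met this rule, and these belong to 8 of 21883 annotated protein-coding genes. The rule uses no measured value.

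The peaks come from chromatin immunoprecipitation with a RUNX1 antibody followed by sequencing (ChIP-seq), with 2 libraries before human chorionic gonadotropin (hCG) and 2 libraries 6 h after it. All samples were granulosa cells of CBA x C57BL/6 F1 mice labelled as 21 days old, primed with 5 IU eCG (equine chorionic gonadotropin), a hormone that makes follicles grow. The 6 h group then received 5 IU of hCG, which stands in for the ovulatory hormone surge, 46 h after eCG. Per the labels the 0 h cells are pre-ovulatory and the 6 h cells peri-ovulatory, and the same treatment text, which describes only the 6 h collection, stands on every sample. A single pooled input per time point served as the control of both replicates, and its own data were not analysed here. The labels do not say whether the replicates came from separate animals or pools, so the spread between them may be technical.

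RUNX proteins bind DNA and either activate or repress a gene, depending on the cofactors they recruit. TLE proteins, the vertebrate relatives of the fly protein Groucho, do not bind DNA themselves. They are brought to genes by DNA-binding proteins such as RUNX factors, which carry a short docking peptide at their carboxyl end. ETO proteins share a set of conserved domains first seen in the fly protein Nervy and link DNA-binding factors to NCOR complexes and histone deacetylases. Runx1t1 and Cbfa2t3 are also known as fusion partners of RUNX1 in human leukaemia. Peaks near these genes show where RUNX1 was found on DNA. They do not show how much corepressor the cells made.

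Promoter sequences from RefSeq, on the build GRCm38.p6, are shown first, because most of the starts of these genes carried a peak. The table held 10 start windows for 7 of the 8 genes, each running from 250 bases before to 50 bases after an annotated start, and Runx1t1 was not in it. A peak of at least 1 list overlapped 9 of the 10 windows, against 32.1% of all 32851 windows in the table. The windows below are written 5′ to 3′ along the gene. In the first 3, capitals mark the stretch between the outermost summits of the lists with a peak there, as far as it lies in the window. In the fourth, which no list covered, capitals mark letters of the RUNX core motif.
Tle1, chr4:72200844-72201143, minus strand, overlapped by peaks of all 4 lists: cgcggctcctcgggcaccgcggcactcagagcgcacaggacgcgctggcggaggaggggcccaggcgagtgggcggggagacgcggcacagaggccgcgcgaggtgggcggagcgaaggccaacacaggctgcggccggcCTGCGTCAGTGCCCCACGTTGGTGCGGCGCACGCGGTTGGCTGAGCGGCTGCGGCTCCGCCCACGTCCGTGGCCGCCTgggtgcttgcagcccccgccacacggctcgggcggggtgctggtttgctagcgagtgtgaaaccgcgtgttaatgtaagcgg
Tle4, chr19:14598134-14598433, minus strand, overlapped by peaks of 0 h replicate 2 and both 6 h lists: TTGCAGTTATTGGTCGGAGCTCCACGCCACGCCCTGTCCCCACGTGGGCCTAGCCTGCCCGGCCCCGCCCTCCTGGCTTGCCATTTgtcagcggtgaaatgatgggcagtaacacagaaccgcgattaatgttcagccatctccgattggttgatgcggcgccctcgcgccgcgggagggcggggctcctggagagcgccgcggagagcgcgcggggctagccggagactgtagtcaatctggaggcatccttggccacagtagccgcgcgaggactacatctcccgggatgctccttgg
Cbfa2t2, chr2:154436234-154436533, plus strand, overlapped by peaks of both 6 h lists: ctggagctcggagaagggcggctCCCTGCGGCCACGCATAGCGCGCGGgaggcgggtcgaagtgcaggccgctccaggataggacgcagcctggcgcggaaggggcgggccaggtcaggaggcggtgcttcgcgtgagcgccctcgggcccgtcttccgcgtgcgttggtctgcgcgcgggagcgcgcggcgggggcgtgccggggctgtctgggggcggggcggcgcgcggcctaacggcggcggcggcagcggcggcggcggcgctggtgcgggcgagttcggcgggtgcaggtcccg
Cbfa2t3 outer start, chr8:122699060-122699359, minus strand, overlapped by no peak: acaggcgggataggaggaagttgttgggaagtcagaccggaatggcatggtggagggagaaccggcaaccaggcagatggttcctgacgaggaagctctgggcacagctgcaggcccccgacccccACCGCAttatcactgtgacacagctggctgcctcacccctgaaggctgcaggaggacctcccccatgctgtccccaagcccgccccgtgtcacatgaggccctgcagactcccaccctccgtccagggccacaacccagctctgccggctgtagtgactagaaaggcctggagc

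The RUNX core was searched as TGTGGT and TGCGGT on both strands. Of all windows in the table, 22.4% held at least 1 of these, as did 22.6% of the windows that overlapped a peak. Among the 10 windows of the corepressor genes, 1 held it, the outer start of Cbfa2t3. Its letters, ACCGCA, begin 124 bases before the start, in the one window that had no peak. None of the 9 windows with a peak held either core. These counts describe letters in short windows, and the longer peak regions were not searched because no genome sequence was used here.

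Depth was not stated in the sources used here, so the background behind the calls was solved from the fold and p of each peak. The lists held 948 and 3135 peaks at 0 h and 18761 and 28671 peaks at 6 h. The genome-wide background lay between 2.13 and 2.77 reads per position in the 4 libraries, and was lowest in 6 h replicate 2, the longest list. Where the background is at that level, the fewest reads at a summit that reach the p-value limit of a list are 16 to 18. Of 7 granulosa marker genes, 4 had a region called in both replicates at 0 h, against 8.76% of all coding genes, and 6 at 6 h, against 68.9%. Fshr had none at either time. Of 8 markers of theca, immune, endothelial and oocyte cells, 1 (Zp3) had such a region at 0 h and 8 at 6 h. Peaks at a marker are not its expression, so they do not test the labelled cell type.

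The 8 genes together held 6 and 13 peaks in 0 h replicates 1 and 2, and 47 and 70 peaks in 6 h replicates 1 and 2, with a peak shared by overlapping gene windows counted once. The 0 h lists averaged 9.50 ± 4.95 peaks (SD, n = 2), and the 6 h lists 58.5 ± 16.3 (SD, n = 2). Both 6 h libraries lay above both 0 h libraries. On a scale of log2(number + 1) the 6 h mean was higher by 2.56 (exact permutation test over libraries, two-sided, p = 0.333), which is the smallest p that 2 against 2 can give. The direction depended on the length of the lists. With the 948 peaks of lowest p from each library, the counts were 6 and 6 at 0 h and 4 and 4 at 6 h, a difference of −0.49 on the same scale (exact permutation p = 0.333).

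**Figure D1:**
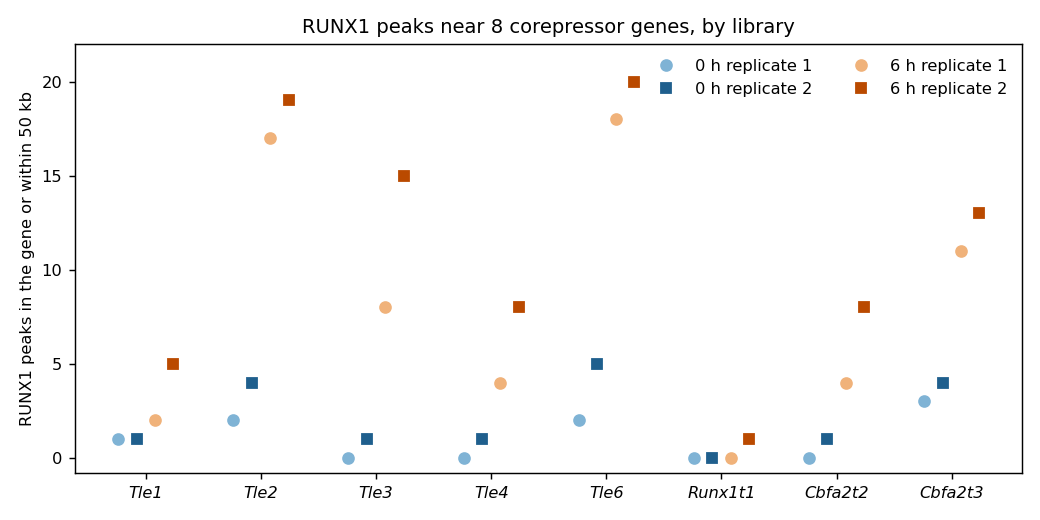
Number of RUNX1 peaks (y axis) in or within 50 kb of each of the 8 corepressor genes (x axis), with 1 point per library. Tle2 and Tle6 stand highest at 6 h and share most of their peaks, and Runx1t1 has a single peak in 1 library.

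Single genes followed the same order of libraries with 1 exception. In 7 of the 8 genes both 6 h lists held more peaks than either 0 h list, against 64.7% of all coding genes, and no gene had fewer in both (0.00457% of all coding genes). The exception was Runx1t1. On the log2(number + 1) scale the median difference over the 8 genes was 2.24, and over all coding genes it was 1.29. The windows of the 8 genes were longer, with a median of 183 kb against 117 kb. Per 100 kb of window, their median number of peaks before hCG was 0.262 and 0.604, and after it 3.72 and 5.70. Over all coding genes the median was 0 in each 0 h list, and it was 0.993 and 1.82 in the 6 h lists.

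Peaks of replicates 1 and 2 of a time point that share at least 1 base are called a replicated region. At 0 h such a region stood at 4 of the 8 genes (Tle1, Tle2, Tle6 and Cbfa2t3), against 8.76% of all coding genes. Tle2 and Tle6 share their 0 h regions, of which 1 lies inside Tle2 and 1 inside Sirt6, and without their windows the count was 2 of 6. At 6 h it stood at 7 of the 8, all but Runx1t1, against 68.9% of all coding genes. None of the 8 combined a replicated 6 h region with a complete lack of 0 h peaks, a class that held 40.4% of all coding genes. In 0 h replicate 2 alone, where no region can be replicated, 7 genes had a peak. The 0 h count of genes with a replicated region was 1, Cbfa2t3, with a −log10 q of at least 20. With summits inside the gene body only, 2 genes had a replicated region at 0 h, Tle2 and Cbfa2t3, against 2.07% of all coding genes. At 6 h 7 had one inside the body, against 35.4%. With an equal number of peaks per library, 4 genes had a replicated region at 0 h and 3 at 6 h, so 6 h no longer stood above 0 h. The shares of all coding genes were not computed with equal peak numbers, with 0 h replicate 2 alone or with the limit on q.

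Merging the peaks of all 4 lists gave 72 distinct regions at the 8 genes, 35 of them with the summit inside a corepressor gene. Of the 72, 5 were called in all 4 lists, 7 in both 6 h lists and 1 of the 0 h lists, and 30 in both 6 h lists alone. A further 29 were called in 1 of the 6 h lists only, 26 of them in replicate 2, and 1 was called in both 0 h lists and in no 6 h list. Of the 42 replicated 6 h regions, 30 had no 0 h peak, or 71.4% (exact Clopper-Pearson 95% interval 55.4 to 84.3, counting error only). Over all 17190 replicated 6 h regions the share was 83.5%. The interval of the 8 genes covers this value. The share depended on the length of the lists, and with equal numbers of peaks it was 25% (1 of 4 regions). The share over all regions was not computed at that setting. Regions that also had a 0 h peak stood higher in the 6 h lists. Their median percentile of fold was 76.0 and 82.7 in 6 h replicates 1 and 2, against 48.8 and 51.1 for the regions without a 0 h peak. The same split was not made over all replicated 6 h regions, so it is not shown to be particular to these genes.

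**Figure D2:**
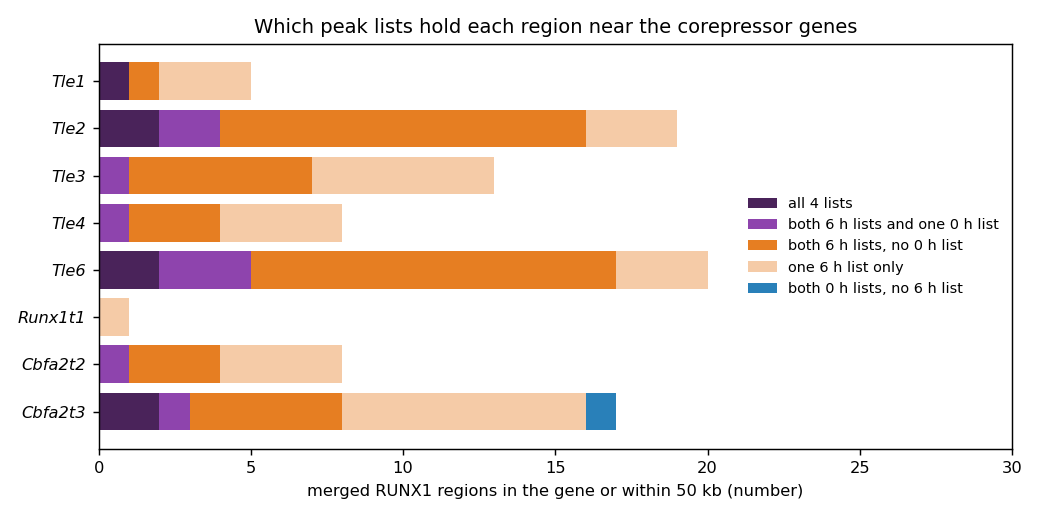
Merged RUNX1 regions at each gene (bar length, number) split by the lists that hold them. Regions called in all 4 lists occur in the windows of Tle1, Tle2, Tle6 and Cbfa2t3, and the single region called only at 0 h lies in Cbfa2t3. The windows of Tle2 and Tle6 overlap, so their shared regions are drawn for both genes.

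Tle1, a full-length TLE corepressor, lies on chromosome 4 at 72109945 to 72200989. Its start, whose sequence is printed above, was the only start of the 8 genes called in all 4 lists. The region at 72199146 to 72201782 had a fold enrichment over the local background of 4.99 and 10.7 in 0 h replicates 1 and 2 and of 38.8 and 46.6 in 6 h replicates 1 and 2. These are the authors' values, and each is comparable only within its list. Within their own lists they ranked at percentiles 9.39 and 86.7 (0 h) and 99.4 and 98.5 (6 h). The lists differ in length, so percentiles give a rank within a list and show no change between lists. In 0 h replicate 1 the summit held 22 reads and was thus near the limit of that list. The summit of the region lay 33 bp before the listed start, and the summits of the 4 lists all fell in the stretch of 78 bases printed in capitals. A second replicated 6 h region lay 5611 bp inside the gene, with a fold of 12.6 and 25.8 and no 0 h peak. Another 3 regions were called in 6 h replicate 2 alone.

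Tle4, another full-length TLE corepressor, lies on chromosome 19 at 14448072 to 14598183 and had the highest fold of any region at the 8 genes. This region, at 14620300 to 14620908, lay outside the gene, 22440 bp before its start, with no coding gene nearer than Tle4. The fold was 40.7 and 70.5 in the 6 h replicates, at percentiles 99.5 and 99.9, with 152 and 220 reads at the summit. No 0 h list held a peak there. The 6 h background at this site was at the genome-wide level. If that was also so at 0 h, a summit of 18 reads in replicate 1 or 17 in replicate 2 would have reached the p-value limit. The start of Tle4, printed above, was called in 3 lists, at 14597734 to 14599092, with a fold of 8.66 in 0 h replicate 2 and 19.8 and 32.5 at 6 h. The other annotated start had a 6 h region with a fold of 8.78 and 15.8, and a region deep in the gene, 114753 bp from the nearest start, had 12.8 and 24.6. Neither had a 0 h peak.

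The coding genes with the most similar pattern to Tle4 were sought by the percentile of the best peak in each of the 4 lists. The 3 nearest outside its own window were Gm13090, Gm38529 and Znrf3, at Euclidean distances of 0.472, 0.472 and 0.705 percentile points. Like Tle4 they had no peak in 0 h replicate 1, a best peak between percentiles 71.5 and 72.5 in 0 h replicate 2, and a best peak above percentile 99 in both 6 h lists. Gm13090 and Gm38529 have the same values and lie within 50 kb of each other. In Tle4 the best 0 h peak belonged to the region at the start, and the best 6 h peaks to the region 22440 bp before it. The pattern of Tle4 is thus not that of a single site. This is a likeness over 4 lists, given as a description.

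Tle3, also a full-length TLE corepressor, lies on chromosome 9 at 61372326 to 61418497. The gene had 0 and 1 peaks at 0 h and 8 and 15 at 6 h, which was the widest difference of the 8 genes (3.08 on the log2 scale of number + 1). Its 7 replicated 6 h regions stretched from 34584 bp before the start to 19405 bp inside the gene. The region of highest rank lay inside, at 61391575 to 61392635, with a fold of 14.2 and 23.0. The next, at 61368302 to 61369981, lay 2815 bp before the start, with 13.6 and 21.1. Neither had a 0 h peak. The single 0 h peak belonged to the region over the start, at 61372156 to 61373545, with a fold of 5.39 in 0 h replicate 2 and 8.75 and 8.71 at 6 h. Its 0 h summit, at 61372896, held 23 reads, whereas the 6 h summits lay at 61372342 and 61372406. The 0 h peak did not overlap the start window of Tle3, so the merged region does not show 0 h binding at the start itself. The other 3 regions named by rank lay 34584 and 8941 bp before and 5511 bp inside the start, and their fold ran from 7.72 to 9.87 in 6 h replicate 1 and from 14.7 to 17.3 in replicate 2.

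Tle2 and Tle6 are neighbours on chromosome 10, at 81574739 to 81592581 and 81590904 to 81601185, and their annotated bodies overlap by 1678 bp. Tle6 is a shorter, divergent member of the family that is best known for its role in the oocyte. Tle2 had 2 and 4 peaks at 0 h and 17 and 19 at 6 h, and Tle6 had 2 and 5 before hCG and 18 and 20 after it. The windows lie in a gene-dense stretch that also holds Tle5, Gna11, Sirt6 and Ankrd24. Of the 20 distinct regions in one or both of these windows, 8 had Tle2 or Tle6 as the nearest coding gene. Without these windows the other 6 genes held 4 and 8 peaks at 0 h and 29 and 50 at 6 h.

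The region of highest rank on chromosome 10 lay inside Tle2 at 81582613 to 81583879, and all 4 lists held it. Its 0 h fold was 5.74 and 5.96 and its 6 h fold 15.5 and 27.8, with 42 and 42 reads at the 0 h summits and 139 and 182 at the 6 h summits. The start of Tle2 had a 6 h region at 81575164 to 81575505, with a fold of 10.1 and 18.8 and no 0 h peak. The second region in all 4 lists, at 81626870 to 81628093, had Sirt6 as the nearest coding gene and lay 26376 bp from Tle6. Its 0 h fold was 7.32 and 9.52 and its 6 h fold 11.6 and 16.8. A region inside Tle5 at 81563310 to 81564500 had 6.99 in 0 h replicate 2 and 10.9 and 14.1 at 6 h, and one next to Gna11 at 81545133 to 81545531 had 8.49 in that library and 8.81 and 17.5 at 6 h. Inside Tle6 itself both annotated starts had a 6 h region and no 0 h peak. The fold was 7.61 and 5.82 at the outer start and 14.0 and 8.98 at the inner one.

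**Figure D3:**
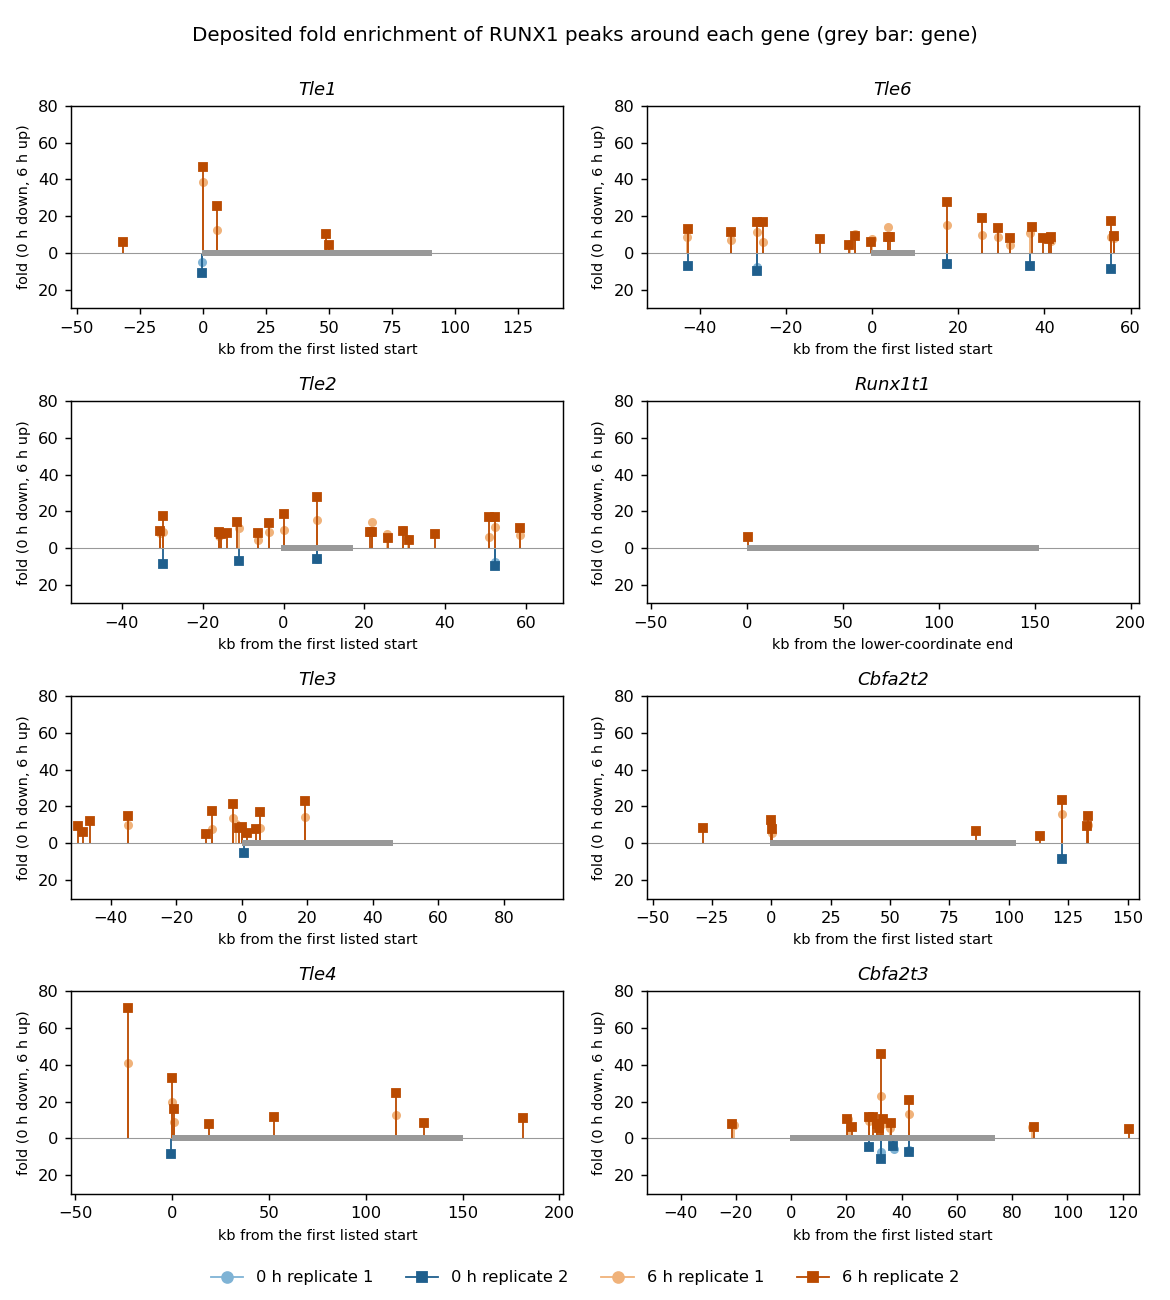
Position of each peak summit (x axis, kb from the first listed start of the gene, in the direction of transcription, or from the lower-coordinate end for Runx1t1) against the deposited fold enrichment (y axis, 6 h upward and 0 h downward), with the gene as a grey bar. The highest stems are the Tle4 region before the gene, at 40.7 and 70.5, the Tle1 start and a region inside Cbfa2t3. Fold values are on a common scale only within a list.

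Cbfa2t3, an ETO family corepressor best known from blood cell development, lies on chromosome 8 at 122625136 to 122699332. It had 3 and 4 peaks at 0 h and 11 and 13 at 6 h, and all of its 0 h peaks lay inside the gene. The 3 replicated 0 h regions were the most of any of the 8 genes. The one of highest rank at 6 h, at 122666280 to 122667155, lay 11704 bp inside the inner start. Its 0 h fold was 7.47 and 10.96 and its 6 h fold 23.2 and 46.1, at percentiles 47.7 and 88.2 and then 95.3 and 98.5. The next, at 122655943 to 122656769, had 6.11 and 7.54 at 0 h and 13.3 and 20.8 at 6 h. Both were called in all 4 lists.

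The third replicated 0 h region of Cbfa2t3, at 122661940 to 122662184, had no 6 h peak, a class that held 1.42% of all replicated 0 h regions. The fold was 5.88 and 3.91 in 0 h replicates 1 and 2, at percentiles 20.3 and 1.21, with 38 reads at the summit in each. The local background was 5.63 and 8.98 reads there, above the genome-wide level of 2.77 and 2.65. The 2 summits lay at 122662037 and 122662164. The −log10 q was 14.98 and 9.34, so with a limit of 20 neither peak would count. A replicated 6 h region began at 122662938, with a fold of 5.92 and 8.60. The inner start of the gene had a 6 h region at 122678314 to 122679013, with 10.6 and 10.4, whereas the outer start had none.

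Cbfa2t2, the other ETO relative with replicated binding, lies on chromosome 2 at 154436098 to 154539356. It had 0 and 1 peaks at 0 h and 4 and 8 at 6 h. The start, printed above, carried 2 narrow 6 h regions, at 154436127 to 154436403 with a fold of 11.2 and 12.4 and at 154436586 to 154436882 with 5.69 and 7.66. Neither had a 0 h peak. The only 0 h peak of the window belonged to a region 19523 bp beyond the gene, at 154558602 to 154559128 inside Necab3. There the fold was 8.73 in 0 h replicate 2 and 15.7 and 23.6 at 6 h. A region near E2f1, at 154569788 to 154570263, had 9.97 and 14.9 at 6 h. The highest fold of this window thus lay inside another gene.

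Runx1t1, which encodes ETO itself, lies on chromosome 4 at 13742628 to 13895056. No peak was called there in 3 of the 4 lists. In 6 h replicate 2 a single peak, at 13743329 to 13743628 and 829 bp into the gene from the lower-coordinate end, had a fold of 6.22 at percentile 9.01, with 23 reads at the summit. With 1 library behind it, this peak is not replicated. The lists hold no other peak in this window of 252 kb.

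For regions called in all 4 lists, the height of the summit was compared on a scale that takes depth into account, as the recovered number of reads at the summit divided by the genome-wide background of the library. There were 795 such regions, and 5 of them belong to the corepressor genes. At the Tle1 start the 0 h heights were 7.94 and 20.4 and the 6 h heights 92.7 and 130. At the region inside Tle2 it was 15.2 and 15.8 before hCG and 50.3 and 85.3 after it, and at the region nearest Sirt6 it was 13.7 and 18.1 and then 44.2 and 70.8. In Cbfa2t3, the region of higher fold had 19.9 and 23.7 at 0 h and 46.4 and 97.0 at 6 h, and the other had 13.0 and 16.2 and then 35.5 and 51.6. At each of the 5, both 6 h libraries were above both 0 h libraries. The share of all 795 regions with this order was not counted, but the mean change was above 0 in 781 of them.

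The 5 regions were tested with limma over all 795 regions. The height was higher at 6 h by 3.11 (log2, SE 0.454) at the Tle1 start, with an adjusted p of 1.24e-09 in limma. This SE was the same for all 795 regions, so it is not the spread of a single region. The Tle2 region followed with 2.08, and the other 3 had 1.83, 1.63 and 1.56, with limma adjusted p from 1.31e-05 to 0.000951. Centring on the library medians ended 4 of the 5 calls, with values in the next paragraph, and 2 were lost under other settings. With a −log10 q of at least 20 in every list, 4 of the 5 regions, the Tle1 start among them, were not tested. The region near Sirt6 had 0.74 (limma adjusted p = 0.120) with the deposited fold, and the Cbfa2t3 region of lower fold had 1.40 (limma adjusted p = 0.0524) without 0 h replicate 1. A rise was general in these libraries. Of the 795 regions, 84.5% were called higher, and the median change was 1.85. None was called lower, none was lower at an unadjusted p under 0.05 in limma, and 2 were called lower with the deposited fold in place of height. The library medians were 13.7 and 17.3 before hCG and 46.7 and 73.6 after it, and such a shift of whole libraries rests on 2 against 2. Being called at 0 h was also a condition for entry, which leaves out sites that were lower there.

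Relative to each library's own median, the Tle1 start remained higher at 6 h by 1.18 (log2, SE 0.235, limma adjusted p = 4.21e-06). On this scale 13.8% of the regions were called higher and 28.9% lower. The error was pooled over the regions (SE 0.234 to 0.235), so neither it nor the p measures the spread of the Tle1 start itself. Its uncentred 0 h heights were 7.94 and 20.4. The 95% intervals below rest on the same pooled error. The Tle1 value was 0.67 (adjusted p = 0.0340 in limma) without 0 h replicate 1, where its height was lowest, and 1.10 (limma adjusted p = 0.0799) without 6 h replicate 1. The other 4 regions did not differ from the shift of their libraries beyond error. Their values were 0.15 (95% interval −0.30 to 0.61) in Tle2, −0.10 (−0.56 to 0.36) near Sirt6, and −0.30 (−0.76 to 0.16) and −0.37 (−0.83 to 0.09) in Cbfa2t3, with limma adjusted p of 0.189 or more. Centring takes the same amount from every region, so a region that rose by less than its libraries turns negative by construction, and all 4 intervals cover 0.

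**Figure D4:**
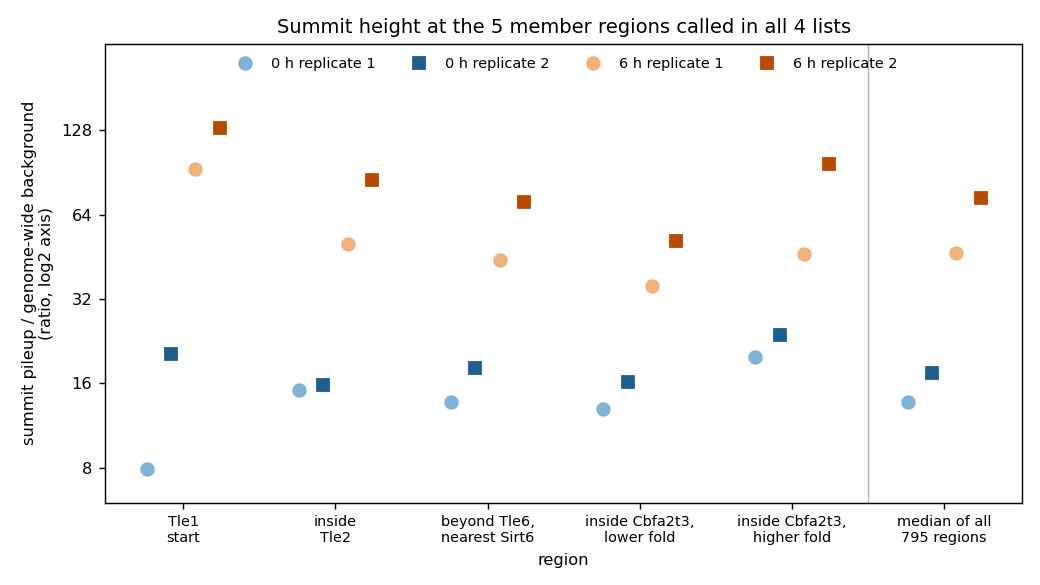
Summit height (y axis, recovered reads at the summit divided by the genome-wide background, log2 axis) in each of the 4 libraries for the 5 regions called in all lists and, at the right, the median of all 795 such regions. The Tle1 start goes from the lowest 0 h value of the plot, 7.94, to the highest 6 h value, 130, while the other 4 move much like the median.

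The corepressor machinery was looked at through 13 genes whose products act with TLE or ETO proteins or with RUNX1, namely Tle5, 3 histone deacetylases, the histone methyltransferases Suv39h1 and Prmt6, and subunits of corepressor complexes. Of these, 2 had a replicated region at 0 h, against 8.76% of all coding genes, and 12 had one at 6 h, against 68.9%. In 12 both 6 h lists held more peaks than either 0 h list, against 64.7%. Their median difference was 1.58 on the log2 scale of number + 1, and that of all coding genes was 1.29. The genes with a 0 h region were Tle5, a short TLE relative that lacks much of the family's structure, and Gps2, a subunit of NCOR complexes. Tle5 had 1 and 3 peaks at 0 h and 14 and 16 at 6 h. Its window overlaps that of Tle2, and its replicated 0 h region is the one inside Tle2 that was already counted for Tle2 and Tle6. Gps2 had 1 and 3 peaks at 0 h and 7 and 8 at 6 h. Prmt6, named with its values after they were seen, had no replicated region at either time, with 0 and 0 peaks at 0 h and 0 and 2 at 6 h. Of Runx1, Runx2, Runx3 and Cbfb, Runx1 alone had a replicated region at 0 h (8.76% of all coding genes), and all 4 had one at 6 h (68.9%). Runx1 had 3 and 7 peaks before hCG and 13 and 11 after it.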

How the data were processed

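The deposited files are 1 list of peaks per RUNX1 library. Per the submitters' processing notes, Bowtie2 2.2.5, MACS2 and the build mm10 were used, and settings are not given in the sources used here. The deposited lists give the interval, summit, fold over local background, −log10 p and −log10 q of each peak, and a deposited score that was not used. Positions are counted from 1 on mm10 (GRCm38), and genes and promoters are those of RefSeq on GRCm38.p6.

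Reads at the summit and the background were solved from each deposited fold and −log10 p as a Poisson tail, to within 0.005, for 100% of peaks. The lowest common background of a list served as its depth scale. The 2 pooled inputs were not analysed here. Heights were tested with limma 3.58.1 in R 4.3.3, Benjamini-Hochberg adjusted over all 795 regions. Its estimate of error was the same for all regions in the main test and was pooled across regions after centring too. On simulated heights, changes of 2 (log2) were found in 100% of cases and changes of 1 in 40%. The simulation had 1 error for all regions, no shift of whole libraries, and equal numbers of rises and falls. These data have a general shift, so the rates need not hold for them. Peak numbers were compared over libraries with an exact permutation test in Python 3.11.15. The members, lists and tests were chosen with earlier results of these data known. Up to 5 replicated regions per gene were named, by mean percentile of fold at 6 h, beside regions at starts or seen only at 0 h, which were chosen after their values were seen.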

Additional observations from a re-analysis of the deposited data

How the results depend on the processing

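The comparison of peak numbers (2.56) reversed to −0.49 with equal numbers of peaks per library and kept its direction under the other settings run. Without 1 library it ran from 2.06 to 3.06. With the replicate block it was 2.56 (exact sign-flip p = 0.5, the smallest that 2 pairs allow). The number of genes with a replicated 0 h region was 2 inside gene bodies, 1 with a −log10 q of at least 20 and 2 of 6 without the windows of Tle2 and Tle6, a setting chosen after the data were seen. With 1 list of a time point left out, any peak of the remaining list counts and nothing is replicated. On that looser count, the number at 0 h was 7 without replicate 1 and 4 without replicate 2. At 6 h it was 8 without replicate 1 and 7 without replicate 2. The number of genes with a replicated 6 h region was 3 with equal peak numbers. The share of 6 h regions without a 0 h peak was 25% with equal peak numbers and 94.6% with 50% of both intervals shared. It was 71.4% and 88.1% of the 42 replicated 6 h regions without 0 h replicate 1 or 2. Leaving out 6 h replicate 1 or 2 gave 82.9% and 74.5%, but of all peaks of the remaining 6 h list, which are not replicated regions. The 672 regions called higher became 110, with 230 lower, after centring, and 282 of 343 with a −log10 q of at least 20, where fewer regions were tested, and only 1 of the 5 named, the Cbfa2t3 region of higher fold. Without 1 library the count ran from 501 to 744, and with centring, added later, it was 77, 122, 20 and 47 higher and 215, 223, 125 and 165 lower (without 0 h replicates 1 and 2 and 6 h replicates 1 and 2). After centring, the Tle2 region had 0.15, the Sirt6 region −0.10 and those in Cbfa2t3 −0.37 and −0.30. Without the same libraries in that order these were 0.29, 0.016, 0.21 and 0.10 in Tle2, −0.13, −0.068, −0.087 and −0.11 near Sirt6, −0.36, −0.38, −0.43 and −0.31 in the first and −0.26, −0.34, −0.095 and −0.50 in the second. The replicate block gave 716 higher and changed no call of the regions named. Same-numbered replicates shared only a number, with a correlation of −0.20 between their deviations, and crossed numbers gave 618. The cause of these changes was not tested.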

Other observations

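Runx2, a RUNX family gene chosen after its values were seen, had 0 and 1 peaks in the 0 h replicates and 13 and 15 in the 6 h replicates. The letters CACGTG, noticed in the printed Tle4 start, occurred in 3 of the 10 start windows of the corepressor genes, those of Tle3, Tle4 and Tle6, and in 7.15% of all windows.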
